A study of Schizosaccharomyces pombe with 12 samples.

Results

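The comparison set *ppn1*Δ fission yeast cells against wild-type cells. All 3 *ppn1*Δ libraries and all 3 wild-type libraries were taken, 6 of the 12 libraries in the series, and the values of all 6986 annotated loci of the count table were examined in them. The *ppn1*Δ cells (h+) carried a replacement of *ppn1* by the HygMX cassette, and the wild-type cells were the laboratory strain, also h+. Both were grown vegetatively in YES, a rich yeast extract medium, to log phase at 30°C. Other strains of the series, in which *swd22* or *dis2* was deleted, entered the same fit and are named only where a value of theirs bears on *ppn1*Δ. All 3 *ppn1*Δ libraries carry the same laboratory strain number, as do all 3 wild-type libraries, so that each group is 1 strain grown 3 times and p-values measure the spread between these cultures.

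Ppn1 is a scaffold subunit of the cleavage and polyadenylation factor (CPF), the machine that cuts a nascent RNA polymerase II transcript at the poly(A) site, adds the tail and helps to terminate transcription. With the protein phosphatase Dis2 and the WD-repeat protein Swd22 it forms a submodule of CPF that is called DPS. In fission yeast the phosphate genes *pho1*, *pho84* and *tgp1* each lie behind a long non-coding RNA gene whose transcription represses the mRNA gene, and early termination of the lncRNA relieves the repression. The study worked with a model in which the place of lncRNA termination bears on these genes, and it followed *pho1* through the activity of its acid phosphatase. Its own RNA-seq also placed *pho1* and *pho84* with the strongest falls in the strains that lack a DPS subunit.

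Counts were made on the exons of each annotated locus. Libraries held 17616688 to 23435936 counts in *ppn1*Δ and 19689903 to 21344319 in wild-type, and coding loci took 98.65% to 98.74% of them in *ppn1*Δ and 98.8% to 98.86% in wild-type. Values below are normalized read counts, which are counts scaled by TMM factors to a library of 20755522 counts, in the order of replicates 1, 2 and 3. A locus was called at any fold when its adjusted p was at or below 0.05, and called at 2-fold when it also differed at least 2-fold with a mean of at least 100 normalized counts in either strain. Fold changes are *ppn1*Δ over wild-type on the log2 scale. Among markers of mating type, the M-cell genes *mat1-Mc* and *mat1-Mi* had 0 counts in all 6 libraries. *map3*, the receptor that P cells use to sense M-factor, had 369, 374 and 353 normalized counts in *ppn1*Δ, against 538, 551 and 632 in wild-type, and *mam2*, the receptor for P-factor, had 111, 121 and 107 normalized counts in *ppn1*Δ, against 166, 191 and 260.2 in wild-type.

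The deleted gene and some others were handled apart, 19 loci in all: *ppn1* itself (SPCC74.02c), its neighbour *ssp2* (SPCC74.03c), 9 loci whose identifier starts with SPAC186 and 8 that start with SPAC750. *ppn1* had 98.5, 97 and 124 normalized counts in *ppn1*Δ, against 468, 523 and 507 in wild-type, and 21.3% of the wild-type mean was left. The authors checked the *ppn1* coding sequence in the deletion strain and found it to be without reads. A locus is counted whole, with its untranslated regions, and by these counts alone reads from what the cassette left in place cannot be told from others. *ssp2*, the catalytic subunit of AMP-activated kinase, had 2645, 2621 and 2846 normalized counts in *ppn1*Δ, against 3296, 3018 and 3039.6 in wild-type, a log2 fold change of -0.20 (adjusted p = 0.021), and this call was lost without *ppn1*Δ replicate 1 (log2 fold change -0.19), without *ppn1*Δ replicate 2 (-0.18), without wild-type replicate 1 (-0.15) and by library size alone (-0.13).

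The loci SPAC186 and SPAC750 lie next to each other near the right end of chromosome I. Of these, 11 had enough counts for the test and 8 were lower in *ppn1*Δ. SPAC750.01, an aldo/keto reductase, had 22.8, 23.7 and 16.6 normalized counts in *ppn1*Δ, against 1229.9, 1708 and 1677 in wild-type. *gdt1* had 229, 7.89 and 38.1 normalized counts in *ppn1*Δ, against 2981, 2803 and 3095 in wild-type, and among its *ppn1*Δ libraries replicate 1 kept a level that the others did not. *ftm4*, a small membrane protein gene, had 0, 0 and 0.828 normalized counts in *ppn1*Δ, against 129.7, 119 and 98.6 in wild-type, which is at least 40.4-fold lower when 3 counts per library are taken as the limit. The same bound was at least 15.3-fold lower for SPAC750.06c, 8.48-fold for SPAC186.08c and 7.99-fold for *pdc102*. At most of the 8 lower loci all 3 *ppn1*Δ libraries were therefore near 0, where all wild-type libraries had reads. SPAC186.03 was not called (adjusted p = 0.43). The 6 loci of the stretch that were not tested had few or no counts in either strain, and 3 of them had 0 in all 6 libraries.

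At the inner edge of this stretch, 2 of the SPAC186 loci went the other way. *pfl9*, which encodes a cell surface glycoprotein of the DIPSY family, had 361, 614 and 562 normalized counts in *ppn1*Δ, against 176, 173 and 171 in wild-type, a log2 fold change of 1.56 (standard error 0.17, adjusted p = 1.2e-06). SPAC186.02c had 16.4, 20.3 and 24.8 normalized counts in *ppn1*Δ, against 0, 1.91 and 0 in wild-type, at least 6.73-fold higher. Closer to the centre of the chromosome, loci with the prefix SPAC869 were also higher in *ppn1*Δ: *mel1*, a melibiase, had 51.1, 40.6 and 57.1 normalized counts in *ppn1*Δ, against 11.1, 6.67 and 8.67 in wild-type. The lncRNA *prl61*, which lies between SPAC186.07c and SPAC186.08c and was not among the 19 loci by its identifier, had 4.56, 0 and 0.828 normalized counts in *ppn1*Δ, against 176, 207 and 359 in wild-type. In the other strains of the series *gdt1* had 25.5, 10.4 and 40.4 normalized counts in *swd22*Δ and 4387, 3832 and 4891 in *dis2*Δ. The cause of these values was not tested. The 19 loci stay out of the counts of called loci and of list members that follow, but they could enter later counts as neighbours of other loci.

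**Figure D1:**
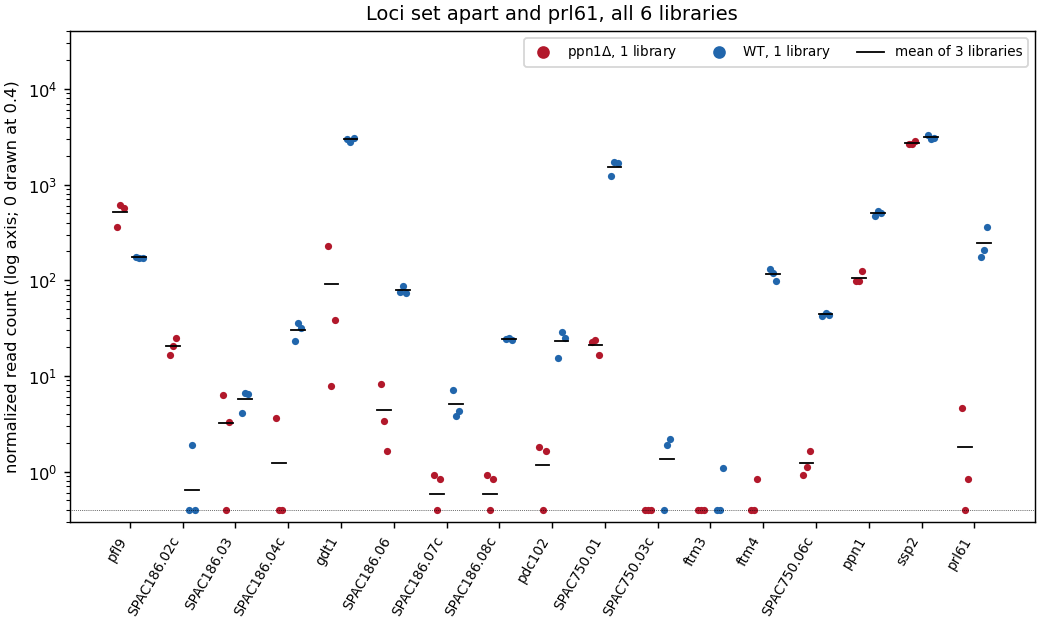
Normalized read counts (vertical log axis, 0 drawn at 0.4) of the loci handled apart that had any count, and of *prl61*, with 1 point per library, *ppn1*Δ left of wild-type, and a line at the mean of 3 libraries. *pfl9* and SPAC186.02c are higher in all *ppn1*Δ libraries, *gdt1* ranges over 229, 7.89 and 38.1 in *ppn1*Δ, and SPAC750.01 and *ftm4* are far below wild-type in all 3.

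The remaining 6967 loci included 6097 with enough counts to test. At 2-fold, 36 coding genes were up-regulated in *ppn1*Δ (0.726% of the 4960 coding genes tested) and 68 were down-regulated (1.37%). Among non-coding loci the same rule called 60 up (5.73% of 1047) and 36 down (3.44%). In each of these calls the 3 *ppn1*Δ libraries lay wholly above or wholly below the 3 wild-type libraries, against 25.9% of all tested loci wholly above and 28.9% wholly below. When single libraries were omitted, one after the other, 29 of the 36 and 54 of the 68 coding calls were made in all 6 fits. For non-coding calls the counts were 50 of the 60 up and 30 of the 36 down.

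Most of the change was smaller than 2-fold. At any fold, 1140 coding genes were up (23%) and 1310 down (26.4%), and 2510 were not called. Of those called, 1297 (52.9%) differed between 1.2- and 1.5-fold, 375 (15.3%) between 1.5- and 2-fold and 611 (24.9%) by less than 1.2-fold. The quartiles of all coding genes were -0.21 and 0.21 on the log2 scale, with a median of -0.0051. Over all classes of loci, pseudogenes and small RNA genes included, 101 were up (1.66%) and 105 down (1.72%) at 2-fold, and 1492 were up (24.5%) and 1527 down (25%) at any fold, so that 49.4% of these calls were up. This split depends on the scaling, since library size alone in place of TMM factors gave 1843 up and 1168 down (61.2% up) and moved the median of all loci by less than 0.1, to 0.086 from 0.0088. Directions of small shifts are therefore relative to the other genes. The shares of 23% up and 26.4% down among coding genes stand behind each count of list members below.

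**Figure D2:**
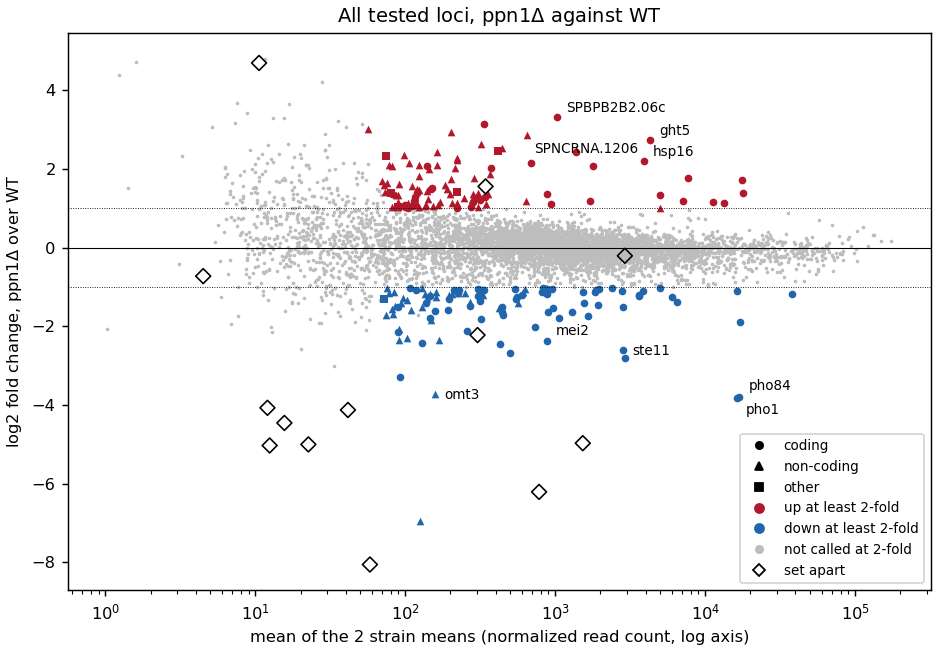
Log2 fold change of *ppn1*Δ over wild-type (vertical axis) against the mean of both strain means in normalized read counts (horizontal log axis), for all tested loci. Red and blue points are the loci called up and down at 2-fold, by class, diamonds are the loci set apart, and dotted lines mark a 2-fold difference; *pho1* and *pho84* are the lowest abundant genes, at -3.82 and -3.81.

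Phosphate genes held the largest falls among the abundant mRNAs. *pho1*, the secreted acid phosphatase, had 2356, 1964 and 2097 normalized counts in *ppn1*Δ, against 30718, 29215 and 30947 in wild-type. *pho84*, the phosphate transporter next to it, had 2387, 2264 and 2105 normalized counts in *ppn1*Δ, against 31556, 29981 and 32939 in wild-type. Their log2 fold changes were -3.82 and -3.81, and the strains did not overlap, where 28.9% of all tested loci lay wholly below wild-type. *tgp1*, the transporter of glycerophosphodiesters and the other member of the lncRNA-controlled regulon, had 317, 343 and 292 normalized counts in *ppn1*Δ, against 262, 263 and 292 in wild-type, and its log2 fold change of 0.22 was not called (adjusted p = 0.11, with an adjusted p at or below 0.05 only when scaled by library size). *pho7*, the transcription factor that activates these genes, had a log2 fold change of 0.25 (3027, 3204 and 2971 normalized counts in *ppn1*Δ, against 2536, 2413 and 2783 in wild-type). Thus 2 of the 3 structural genes fell while their activator was slightly higher.

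The neighbourhood of *pho84* and *pho1* moved as a mixed block. *prt2*, the lncRNA that starts before *pho84* and represses it, had 632, 659.8 and 609 normalized counts in *ppn1*Δ, against 460.0, 322 and 411 in wild-type, a log2 fold change of 0.67 (adjusted p = 6.5e-05). Its annotated span runs into *pho84* on the same strand, where counting could have left out or shared reads. *ecl3*, on the other side of *prt2* and divergent from it, had 93, 63.2 and 76.2 normalized counts in *ppn1*Δ, against 244, 257 and 215 in wild-type, a log2 fold change of -1.62. Ecl3 belongs to a family of small proteins that extend chronological lifespan. The 2 other members differed, as *ecl2* had 2244, 2339 and 2386 normalized counts in *ppn1*Δ, against 4335, 4362 and 4545 in wild-type and *ecl1* had 712, 926 and 799 normalized counts in *ppn1*Δ, against 621, 623 and 577 in wild-type, log2 fold changes of -0.93 and 0.42. The lncRNAs that precede *pho1* and *tgp1* directly are not analysed here. SPNCRNA.1343 (listed as *ncRNA.1343*), which lies on the opposite strand before *tgp1*, had a log2 fold change of -0.29 (448, 411 and 433 normalized counts in *ppn1*Δ, against 456, 548 and 572 in wild-type).

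Of the 12 phosphate and inositol pyrophosphate genes listed, 3 rose and 8 fell, with a median of -0.33 against -0.0051 for all coding genes. Genes of vacuolar polyphosphate synthesis were lower: *vtc2* had 4808, 4882 and 4495 normalized counts in *ppn1*Δ, against 8373, 8106 and 8456 in wild-type and *vtc4* had 3417, 3133 and 3093 normalized counts in *ppn1*Δ, against 5143, 4961 and 5462 in wild-type, log2 fold changes of -0.81 and -0.69. The inositol polyphosphate kinase genes *asp1* and *kcs1* were lower, *asp1* by a log2 fold change of -0.46 (499.7, 519 and 468 normalized counts in *ppn1*Δ, against 675, 709 and 654 in wild-type) and *kcs1* by -0.36. Outside the list, and among the 10 moderate rises of smallest adjusted p, *ipk1*, the kinase that makes inositol hexakisphosphate, had 2828, 3016 and 2697 normalized counts in *ppn1*Δ, against 1838, 1793 and 1819 in wild-type, and *pho843*, another phosphate transporter gene, had 4929.7, 5152 and 4515 normalized counts in *ppn1*Δ, against 2692, 2587 and 2870.5 in wild-type. Their log2 fold changes were 0.65 and 0.84. The plasma membrane transporter of inositol, *itr2*, was lower, with 6907, 7129 and 7124 normalized counts in *ppn1*Δ, against 13739.9, 13469 and 14266 in wild-type and a log2 fold change of -0.97.

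**Figure D3:**
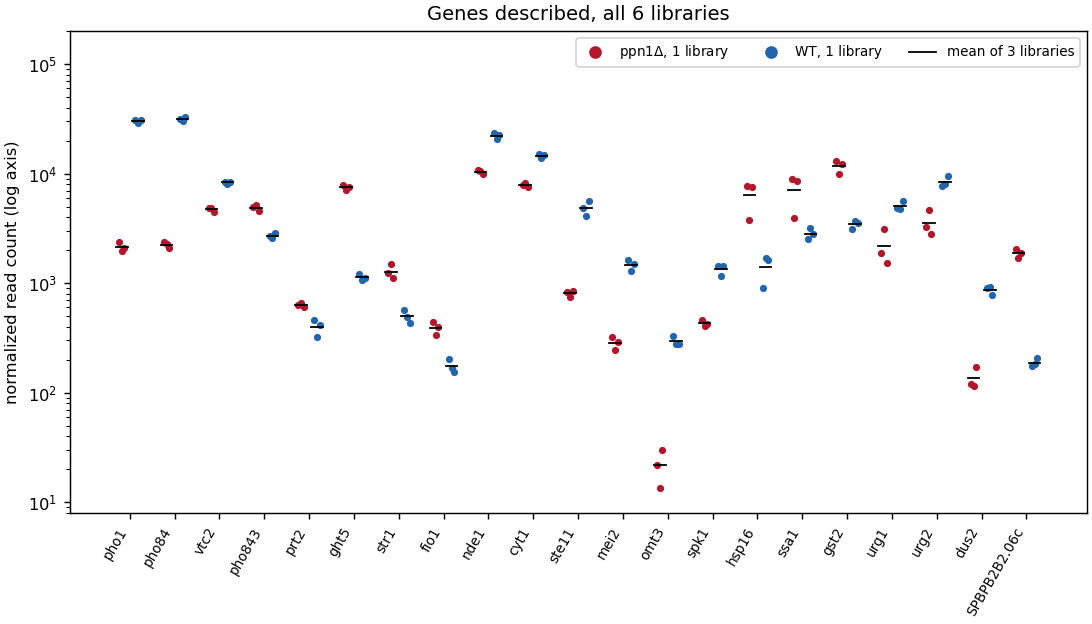
Normalized read counts (vertical log axis) of genes described in the text, with 1 point per library, *ppn1*Δ left of wild-type, and a line at the mean of 3 libraries. The strains do not overlap for any of them, where 25.9% of all tested loci lie wholly above wild-type and 28.9% wholly below. *hsp16* and *ssa1* have 1 *ppn1*Δ library (replicate 2, 3793 and 3918) well below the other 2.

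Genes of sexual differentiation formed the next group of large falls. Fission yeast mates and enters meiosis when starved, under the transcription factor Ste11, and the RNA-binding protein Mei2 then commits the cell to meiosis. *ste11* had 823, 752 and 846 normalized counts in *ppn1*Δ, against 4838, 4088 and 5668 in wild-type, a log2 fold change of -2.59 (standard error 0.13, adjusted p = 2.1e-10). *mei2* had 324, 246 and 289.9 normalized counts in *ppn1*Δ, against 1615, 1303 and 1511 in wild-type, a log2 fold change of -2.36 (standard error 0.11, adjusted p = 5.2e-11). Downstream of the pheromone receptors, the G-protein subunit gene *gpa1* had 1225, 1068 and 1213 normalized counts in *ppn1*Δ, against 2464, 2403 and 2751 in wild-type and the MAP kinase gene *spk1* had 457, 409 and 426 normalized counts in *ppn1*Δ, against 1449, 1153 and 1443 in wild-type, log2 fold changes of -1.12 and -1.64. The MAP kinase kinase gene *byr1* was at -0.83, the adaptor gene *ste4* at -0.85 and *rgs1*, which turns the G-protein off, at -0.77. Of 16 genes in this list 10 fell and 1 rose, with a median of -0.49, where 26.4% of coding genes fell and 23% rose. The gene that rose, the formin gene *fus1*, had 288, 319 and 406 normalized counts in *ppn1*Δ, against 219.8, 296 and 221 in wild-type, and its call was lost without *ppn1*Δ replicate 3 (log2 fold change 0.30), without wild-type replicate 1 (0.40) and without wild-type replicate 3 (0.39).

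Mating-type genes were low in both strains. *map1*, a transcription factor of P cells, had 55.6, 32.7 and 48.9 normalized counts in *ppn1*Δ, against 100.3, 149 and 146 in wild-type, a log2 fold change of -1.51. The receptor genes *map3* and *mam2*, whose counts stand above, were at -0.65 and -0.86. *map2*, which encodes P-factor, had 69.3, 105 and 98.6 normalized counts in *ppn1*Δ, against 90.2, 81 and 68.3 in wild-type, and its groups overlapped. *sxa2*, a protease of M cells, went up with 366, 388 and 432 normalized counts in *ppn1*Δ, against 289.8, 304 and 268 in wild-type.

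Meiotic genes, most of which are silent in growing cells, rose more often than they fell. Of 30 tested, 15 rose and 2 fell, with a median of 0.55, where 23% of all coding genes rose and 26.4% fell. Levels stayed low: *meu14*, needed for the forespore membrane, had 69.3, 82.3 and 77 normalized counts in *ppn1*Δ, against 23.3, 22.9 and 13 in wild-type, *meu31* had 107, 129.7 and 119 normalized counts in *ppn1*Δ, against 35.5, 66.7 and 33.6 in wild-type, and *mcp4* had 89.4, 88 and 88.6 normalized counts in *ppn1*Δ, against 35.5, 42.9 and 42.3 in wild-type. *rec10*, a component of the linear elements along meiotic chromosomes, had 305, 359 and 412 normalized counts in *ppn1*Δ, against 213, 211 and 229 in wild-type. A gene that fell was *rec12*, which makes the DNA breaks of meiotic recombination, with 24.6, 19.2 and 19 normalized counts in *ppn1*Δ, against 45.6, 48.6 and 37.9 in wild-type. *mmi1*, whose protein marks many meiotic mRNAs for decay in growing cells, had 1322, 1360.2 and 1379.8 normalized counts in *ppn1*Δ, against 2036, 1976 and 2194 in wild-type, a log2 fold change of -0.61. Its part in the meiotic rises was not tested.

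Sugar uptake was among the strongest rises. *ght5*, the high-affinity glucose transporter that supports growth on little glucose, had 7817, 7158 and 7489 normalized counts in *ppn1*Δ, against 1208, 1058 and 1121 in wild-type, a log2 fold change of 2.73 (standard error 0.12, adjusted p = 2e-11). *ght1* had 158, 165 and 167 normalized counts in *ppn1*Δ, against 70.9, 67.7 and 62.9 in wild-type and *ght3* had 171, 144 and 128 normalized counts in *ppn1*Δ, against 103, 79.1 and 74.8 in wild-type. With *ght4* at 0.37, 4 of 8 hexose transporter genes rose and 0 fell (median 0.26). The secreted invertase gene *inv1*, which is repressed by glucose, had 235, 248 and 188 normalized counts in *ppn1*Δ, against 86.1, 63.9 and 82.4 in wild-type, a log2 fold change of 1.53, while its paralog *inv2* had 484, 408 and 541 normalized counts in *ppn1*Δ, against 1696, 1574 and 1691 in wild-type, a log2 fold change of -1.78. In the wider list of glucose repression and AMP-activated kinase, 5 of 18 rose and 7 fell, and its median changed sign with the scaling (-0.053, and 0.027 by library size alone). Within it *cgs1*, the regulatory subunit of protein kinase A, had 178, 196 and 231 normalized counts in *ppn1*Δ, against 312, 374 and 379 in wild-type, the glucose receptor gene *git3* was at -0.53, and the corepressor gene *tup11* at -0.44.

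Several glycolysis genes rose and genes of respiration fell more often than they rose, by moderate amounts. Of 18 glycolysis and fermentation genes 9 rose and 1 fell (median 0.22), or 12 and 0 by library size alone, where 23% of all coding genes rose at any fold and 26.4% fell. *tdh1*, glyceraldehyde-3-phosphate dehydrogenase, had 84819, 73702 and 92054 normalized counts in *ppn1*Δ, against 61451, 55723 and 51809 in wild-type, and *pgk1*, phosphoglycerate kinase, had 127550.0, 111789 and 112717 normalized counts in *ppn1*Δ, against 93562, 84315 and 85917 in wild-type. The gene that fell was *eno102*, with 31, 21.4 and 50.5 normalized counts in *ppn1*Δ, against 54.7, 72.5 and 52 in wild-type, whose call was lost without *ppn1*Δ replicate 1 (log2 fold change -0.68), without *ppn1*Δ replicate 2 (-0.55), without wild-type replicate 2 (-0.60) and by library size alone (-0.69). In the tricarboxylic acid cycle 10 of 14 genes fell and 0 rose (median -0.26), or 10 and 1 by library size alone. The fumarase gene *fum1* had 5029, 5560.3 and 4856 normalized counts in *ppn1*Δ, against 7447, 6626 and 7216 in wild-type.

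Of 47 genes for the respiratory chain and ATP synthase, 27 fell and 5 rose (median -0.28). Over all coding genes 26.4% fell and 23% rose. The NADH dehydrogenase gene *nde1* had 10751, 10500.3 and 10019.8 normalized counts in *ppn1*Δ, against 23520.5, 20550.4 and 22438 in wild-type, a log2 fold change of -1.09, and *ndi1*, another such enzyme, was at -0.86. In complex III, *cyt1* (cytochrome c1) had 7913, 8145 and 7611 normalized counts in *ppn1*Δ, against 15038, 13905 and 14776 in wild-type, and *qcr2* and *qcr8* were at -0.89 and -0.68. Among the genes that rose, the assembly factor gene *cox16* was at 0.39 (764, 787 and 905 normalized counts in *ppn1*Δ, against 583, 725 and 573 in wild-type). Related carriers and enzymes outside the lists also fell, with *mae2*, the malic enzyme, at -1.18 (24967, 22603 and 22175 normalized counts in *ppn1*Δ, against 53129, 51140.0 and 53745 in wild-type) and the mitochondrial tricarboxylate carrier gene *yhm2* at -0.99.

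Iron uptake genes were among those that rose. In fission yeast these genes are repressed by Fep1 when iron is plentiful. Of 14 iron genes tested 8 rose and 1 fell (median 0.27), where 23% of all coding genes rose. The siderophore transporter gene *str1* had 1232, 1492 and 1106 normalized counts in *ppn1*Δ, against 573, 486 and 431 in wild-type, and its paralog *str3* had 15.5, 24.8 and 15.7 normalized counts in *ppn1*Δ, against 3.04, 1.91 and 5.42 in wild-type. For reductive uptake, the ferroxidase gene *fio1* had 442, 338 and 397 normalized counts in *ppn1*Δ, against 204, 167 and 153 in wild-type, its permease partner *fip1* had 1079, 1007 and 959.9 normalized counts in *ppn1*Δ, against 609, 561 and 530.1 in wild-type, and the ferric reductase gene *frp1* had 213, 196 and 166 normalized counts in *ppn1*Δ, against 98.3, 116 and 117 in wild-type. All 5 lay above wild-type in every library, as did 25.9% of all tested loci. *pcl1*, a vacuolar iron transporter used when iron is in excess, had 4842, 4555 and 4460.0 normalized counts in *ppn1*Δ, against 6079.7, 5709 and 5760.5 in wild-type. For copper and zinc 5 of 13 rose, among them the copper transporter gene *ctr6* at 0.43, and 1 fell, *cuf1*, the copper-sensing activator, at -0.44. The copper transporter gene *ctr4* was at 0.65 (1556, 1858 and 1463 normalized counts in *ppn1*Δ, against 1324, 963 and 821 in wild-type), a call lost without *ppn1*Δ replicate 2 (0.54), wild-type replicate 2 (0.59) or wild-type replicate 3 (0.51), and with DESeq2 on 12 libraries (0.65). Among 8 thiamine-repressed genes 2 were called up, *nmt1* and *thi5*, at 1.17 and 0.20. The call of *nmt1*, which rests on 5.07 to 19.2 normalized counts, was lost without wild-type replicate 1 (0.99) and with DESeq2 on 6 libraries (1.21), and that of *thi5* without *ppn1*Δ replicate 1 (0.19), *ppn1*Δ replicate 2 (0.17) or wild-type replicate 3 (0.18).

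Several chaperone genes were up-regulated, with a wide spread between the *ppn1*Δ cultures. The small heat shock protein gene *hsp16* had 7783, 3793 and 7589.8 normalized counts in *ppn1*Δ, against 901, 1681 and 1613 in wild-type, and *ssa1*, an inducible Hsp70 gene, had 8978, 3918 and 8594 normalized counts in *ppn1*Δ, against 2521, 3178 and 2801 in wild-type. Replicate 2 was the lowest *ppn1*Δ library for both, and it was also the library with the fewest counts (17616688). The part of depth or culture in this was not tested. The same library was also the lowest of its strain for *wos2* (the p23 cochaperone), which had 12669.9, 8542 and 15812 normalized counts in *ppn1*Δ, against 6732, 8546 and 7199 in wild-type, and for *hsp78*, which had 3133, 1815 and 4133 normalized counts in *ppn1*Δ, against 1630.1, 2242 and 1871 in wild-type. In the last 2 genes it lay within the wild-type range, and the call of *hsp78* was lost without *ppn1*Δ replicate 3 (log2 fold change 0.37), without wild-type replicate 1 (0.57) and with DESeq2 on 6 libraries (0.66). *hsp90* had 155210.0, 101356 and 147107 normalized counts in *ppn1*Δ, against 89406, 93456 and 94939.7 in wild-type. Of 22 heat shock and chaperone genes 9 rose and 3 fell (median 0.25), where 23% of all coding genes rose, and 14 rose without *ppn1*Δ replicate 2. Those that fell were *sks2*, a ribosome-bound Hsp70, *ssc1*, the mitochondrial Hsp70, and *hsf1*, the heat shock transcription factor itself, at -0.32, -0.29 and -0.24, and the calls of *ssc1* (-0.20 without wild-type replicate 1) and *hsf1* (-0.16 by library size alone) were each lost in 1 setting.

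Other stress genes were mixed, where 23% of all coding genes rose at any fold and 26.4% fell. In the oxidative stress list 10 of 27 rose and 3 fell (median 0.11), or 16 and 3 by library size alone. *gst2*, a glutathione S-transferase, had 13160.5, 10003 and 12353 normalized counts in *ppn1*Δ, against 3134, 3687 and 3539 in wild-type, a log2 fold change of 1.78. *srx1*, sulfiredoxin, had 479.7, 475 and 506 normalized counts in *ppn1*Δ, against 241, 300.3 and 287 in wild-type, and *obr1*, a quinone reductase, had 77133, 59425 and 77208 normalized counts in *ppn1*Δ, against 41882, 42018 and 46613 in wild-type. *prr1*, a response regulator transcription factor, fell with 5063, 4996 and 4799.5 normalized counts in *ppn1*Δ, against 7449, 6920.0 and 7494 in wild-type. In the core stress list of the Sty1 kinase and Atf1, 10 of 24 fell and 4 rose (median -0.083). *hsp9* had 10410.2, 8972 and 10460.4 normalized counts in *ppn1*Δ, against 3368, 4007 and 5681 in wild-type, whereas *pcr1*, the bZIP partner of Atf1, had 1327, 1454 and 1489 normalized counts in *ppn1*Δ, against 2219.7, 2141 and 2308 in wild-type, *cmk1*, a calmodulin-dependent kinase, had 1091, 1245 and 1040.2 normalized counts in *ppn1*Δ, against 1927, 1804 and 2345 in wild-type, and *rds1* was at -0.88. Only *hsp9* of this list was called up at 2-fold, and no member was called down at 2-fold.

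Pyrimidine genes fell. Of 8 uracil-regulated and pyrimidine synthesis genes tested 7 fell and 0 rose (median -0.46). *urg1* and *urg2*, which are induced by uracil, had 1898, 3104 and 1514 normalized counts in *ppn1*Δ, against 4829, 4805 and 5679 in wild-type and 3245, 4625 and 2796 normalized counts in *ppn1*Δ, against 7779, 8019 and 9529.6 in wild-type. In both, *ppn1*Δ replicate 2 was the highest of its strain and still below every wild-type library. The uracil permease gene *fur4* was at -0.56, and the synthesis genes *ura1*, *ura3* and *ura5* at -0.54, -0.35 and -0.27.

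Genes of the machinery to which Ppn1 belongs went in both directions. Both partners in DPS were close to the threshold, *dis2* with 14452, 14047 and 13062 normalized counts in *ppn1*Δ, against 11943, 11687 and 12922 in wild-type (adjusted p = 0.048) and *swd22* with 1376, 1364 and 1243 normalized counts in *ppn1*Δ, against 1639, 1499 and 1525 in wild-type (adjusted p = 0.05), log2 fold changes of 0.19 and -0.23. The *dis2* call was lost with relative log expression factors and without replicate 1 or 2 of either strain (log2 fold changes of 0.15 to 0.18), and *swd22* was called without wild-type replicate 2 (-0.25), with relative log expression factors, DESeq2 on 12 or 6 libraries, edgeR on 6 libraries, no low-count filter and the replicate block (-0.23 in each). Of 18 cleavage and polyadenylation genes 6 rose and 4 fell (median 0.0029), where 23% of all coding genes rose and 26.4% fell. The core subunit gene *cft2* had 546, 550.4 and 631 normalized counts in *ppn1*Δ, against 858, 917 and 853 in wild-type and *msi2*, an RNA-binding factor, had 1409, 1625 and 1352 normalized counts in *ppn1*Δ, against 889.5, 973 and 917 in wild-type, log2 fold changes of -0.60 and 0.66. The cleavage and polyadenylation gene *mpe1* was not in the list, nor among the CPF subunits that the study names, and was chosen after its values were seen. It had 965, 965 and 951 normalized counts in *ppn1*Δ, against 2249, 1962 and 2101 in wild-type, a log2 fold change of -1.13. Besides the deleted *ppn1*, no other gene of this group that was looked at fell at least 2-fold.

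Lists for RNA polymerase II, for phosphatases and for RNA decay held rises and falls, where 23% of all coding genes rose and 26.4% fell. In the fit with TMM factors and all libraries, the polymerase and RNA decay lists were called no more often than that in either direction. For the polymerase, its C-terminal domain and elongation 5 of 26 rose and 5 fell, with a median of -0.016 that turned to 0.060 by library size alone, and 3 rose without *ppn1*Δ replicate 3, wild-type replicate 1 or wild-type replicate 3. *tpr1*, a subunit of the Paf1 elongation complex, had 994, 925 and 1097 normalized counts in *ppn1*Δ, against 1929, 2118 and 1965 in wild-type, and the largest subunits *rpb1* and *rpb2* were at -0.32 and -0.46. Among 21 genes for PP1 and related phosphatases 10 fell and 2 rose (median -0.11), or 6 and 4 by library size alone, and 0 rose without *ppn1*Δ replicate 1, *ppn1*Δ replicate 2 or wild-type replicate 2. Those that fell included *par2*, a regulatory subunit of PP2A, with 1198, 1233 and 1346 normalized counts in *ppn1*Δ, against 2173, 2006 and 1971 in wild-type, and *ppe1*, a PP6-type phosphatase, with 3840.0, 3938 and 3618 normalized counts in *ppn1*Δ, against 5208, 5326 and 5569.7 in wild-type. In nuclear RNA decay 5 of 24 rose and 5 fell (median 0.0089), but 1 rose without *ppn1*Δ replicate 3, wild-type replicate 1 or wild-type replicate 3 and 8 without wild-type replicate 2. *mmi1* was the lowest of them, and *exo2*, a 5′-to-3′ exonuclease, was at -0.43.

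Chromatin genes moved by small amounts, where 23% of all coding genes rose at any fold and 26.4% fell. Of 28 heterochromatin and telomere silencing genes 6 rose and 3 fell (median 0.043), but 2 rose without *ppn1*Δ replicate 3 and 3 without wild-type replicate 1 or 3. *hrr1*, a helicase of the RNAi pathway, had 518, 626 and 695 normalized counts in *ppn1*Δ, against 403, 478 and 359.9 in wild-type, and *epe1*, an antagonist of heterochromatin, had 881, 780.5 and 841 normalized counts in *ppn1*Δ, against 1199.5, 1225 and 1173 in wild-type. Among 13 histone genes 6 rose and 2 fell, but 2 rose without wild-type replicate 2. *cnp1*, the centromeric histone, had 274, 294 and 286 normalized counts in *ppn1*Δ, against 429.6, 452 and 398 in wild-type, while *hht1*, a histone H3 gene, had 30709, 30234 and 28834 normalized counts in *ppn1*Δ, against 24392, 22258 and 24638 in wild-type. Histone H3 and H4 genes are near-identical in their coding parts, and how reads were shared among them is not given. The kinetochore gene *cnp3*, which was not in a list and was chosen after its values were seen, fell further, with 469.6, 519.9 and 499 normalized counts in *ppn1*Δ, against 1435, 1480.5 and 1357 in wild-type.

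Cell cycle and cell wall genes fell more often than they rose, by a margin that depended on the scaling. Over all coding genes 26.4% fell and 23% rose. In mitotic entry and checkpoint 10 of 26 fell and 3 rose (median -0.18), or 6 and 5 by library size alone. *mik1*, an inhibitory kinase of Cdc2, had 672, 697 and 769 normalized counts in *ppn1*Δ, against 1243, 1133 and 1105 in wild-type, the polo kinase gene *plo1* had 595, 611 and 685 normalized counts in *ppn1*Δ, against 1014, 1063 and 904 in wild-type, and the replication licensing gene *cdc18* had 816, 919 and 1055 normalized counts in *ppn1*Δ, against 1612, 1399 and 1248 in wild-type. Of 31 cell wall genes 13 fell and 4 rose (median -0.13), or 11 and 5 by library size alone. Those that fell included the glucan synthase gene *bgs1* at -0.52 and *gas1*, a glucan remodelling enzyme, at -0.59. In cell separation 5 of 13 fell and 0 rose, or 4 and 2 by library size alone. The genes that fell included the septum-digesting glucanase genes *eng1* and *agn1* at -0.33 and -0.28. Flocculation genes showed the reverse, as 7 of 16 rose and 2 fell (median 0.26), although 4 rose without *ppn1*Δ replicate 2. *cbf12*, a CSL transcription factor that promotes adhesion, had 1498, 1572 and 1332 normalized counts in *ppn1*Δ, against 931, 952 and 1004 in wild-type, and the surface glycoprotein gene *pfl8* was at 0.42.

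Ribosomal protein genes fell more often than they rose. Of 138 genes 54 fell and 4 rose (median -0.14), or 51 and 20 by library size alone, and 33 fell without wild-type replicate 1. *rps2* had 27876, 31473 and 26129 normalized counts in *ppn1*Δ, against 61417, 45832 and 46699 in wild-type and *rpl1602* had 15661, 16381 and 14452 normalized counts in *ppn1*Δ, against 34769, 25157 and 25709.8 in wild-type, where wild-type replicate 1 was the highest library. Ribosome biogenesis divided evenly, with 14 of 76 up and 17 down (median -0.010, and 0.067 by library size alone). *rrn7*, an initiation factor of RNA polymerase I, had 514, 446 and 658 normalized counts in *ppn1*Δ, against 1063, 1225 and 1110.0 in wild-type, a log2 fold change of -1.06, and the nucleolin-like *gar2* was at -0.52. In the proteasome 16 of 34 rose and 3 fell (median 0.13), and 10 rose without *ppn1*Δ replicate 3. *pup2* and *pre4*, subunits of the core particle, were at 0.54 and 0.52, and *rpn10* and *rpn12* of the regulatory particle at 0.45 and 0.44.

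Amino acid and sterol synthesis followed the general split with a lean to falls. Of 64 amino acid synthesis genes 21 fell and 8 rose, but by library size alone the counts were 19 and 18, and the median changed sign (-0.049, and 0.029 by library size alone). The lysine pathway genes *lys2* and *lys12* had 5302, 5343 and 4881 normalized counts in *ppn1*Δ, against 9636, 8371 and 8709 in wild-type and 8974, 7570.1 and 8082 normalized counts in *ppn1*Δ, against 12400.5, 11324 and 12296 in wild-type. Amino acid permease and nitrogen genes gave 7 up and 12 down of 27, again with a median that changed sign (-0.010, and 0.068 by library size alone). *put1*, proline dehydrogenase, was at -0.70 and the ammonium transporter gene *amt1* at -0.56, while another ammonium transporter gene, *amt3*, had 81.2, 103 and 111 normalized counts in *ppn1*Δ, against 43.6, 60.1 and 53.1 in wild-type. In ergosterol synthesis and hypoxia 13 of 32 fell and 5 rose (median -0.089), or 10 and 8 by library size alone, and 6 fell without *ppn1*Δ replicate 3, 7 without wild-type replicate 1 and 8 without wild-type replicate 3. *erg1*, squalene monooxygenase, had 3184, 3680.2 and 3112 normalized counts in *ppn1*Δ, against 7193, 6007 and 6885 in wild-type, a log2 fold change of -1.01. Only 3 of 13 listed Tf2 retrotransposon loci had enough counts, and 2 of them rose: Tf2-11 had 47.4, 45.1 and 68.7 normalized counts in *ppn1*Δ, against 5.07, 14.3 and 6.5 in wild-type. Tf2 copies are near-identical, so that reads could be split between them.

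**Figure D4:**
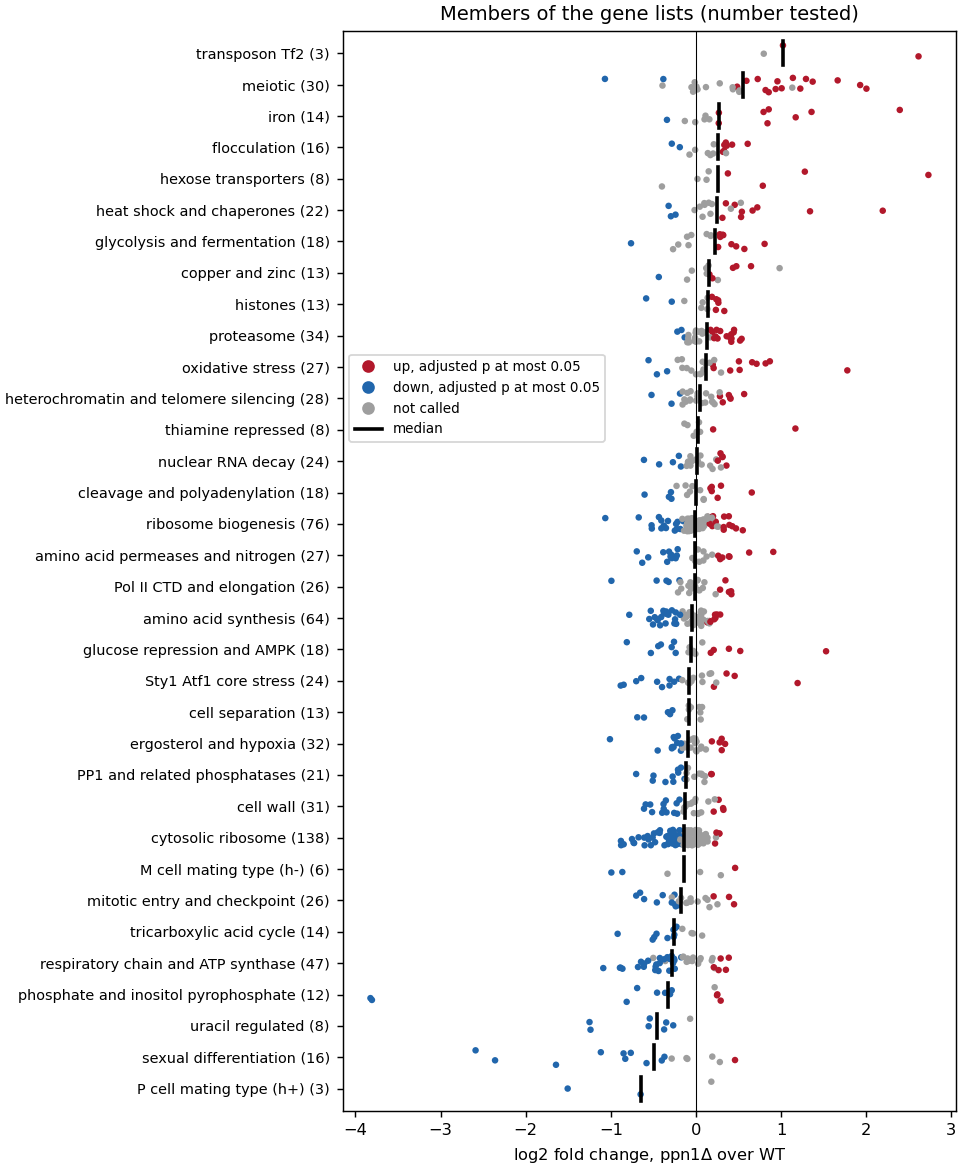
Log2 fold change of *ppn1*Δ over wild-type (horizontal axis) for every tested member of the 34 gene lists (vertical axis, number tested in brackets, sorted by median), with 1 point per gene, coloured by its call at any fold, and a bar at the median. Sexual differentiation, pyrimidine, phosphate and respiratory genes lie to the left (medians -0.49, -0.46, -0.33 and -0.28), and meiotic, iron, hexose transporter and chaperone genes to the right (0.55, 0.27, 0.26 and 0.25).

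Among the other coding genes with large rises, SPBPB2B2.06c, annotated as a phosphoprotein phosphatase, had 2052, 1688 and 1901 normalized counts in *ppn1*Δ, against 175, 183 and 206 in wild-type. Its neighbours in the same stretch of chromosome II were higher as well. SPBPB2B2.05 had 239.8, 187 and 252 normalized counts in *ppn1*Δ, against 30.4, 69.6 and 59.6 in wild-type, the lncRNA *nam3* had 690.3, 755 and 803 normalized counts in *ppn1*Δ, against 121, 154 and 109 in wild-type, and *say1*, a sterol deacetylase gene a little further on, was at 0.59. *ddr48* had 549, 634 and 619.5 normalized counts in *ppn1*Δ, against 62.8, 55.3 and 86.7 in wild-type, *lsd90* had 1226, 1071 and 1059 normalized counts in *ppn1*Δ, against 254, 214 and 294 in wild-type, and SPAC27D7.09c had 2748, 1355 and 2905 normalized counts in *ppn1*Δ, against 339, 505 and 449 in wild-type, with *ppn1*Δ replicate 2 again the lowest of its strain. SPAPB18E9.04c, of unknown function, had 2902, 2950.4 and 2848 normalized counts in *ppn1*Δ, against 739.6, 632 and 699 in wild-type. In all of these the strains did not overlap, and 25.9% of all tested loci lay wholly above wild-type.

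Large falls outside the lists were scattered over functions. SPBC19C7.04c, an uncharacterized protein gene, had 721, 823 and 642 normalized counts in *ppn1*Δ, against 4480.0, 4333 and 6396 in wild-type. *dus2*, a tRNA dihydrouridine synthase, had 120.4, 114 and 171 normalized counts in *ppn1*Δ, against 908, 912 and 783 in wild-type. SPCC330.03c, annotated as a cytochrome b5 reductase, had 129, 113 and 152 normalized counts in *ppn1*Δ, against 658, 732 and 783 in wild-type. *gep4*, a phosphatase of cardiolipin synthesis, had 25.5, 27.1 and 45.6 normalized counts in *ppn1*Δ, against 137, 160.2 and 144 in wild-type. None of these 4 genes had overlapping strains, and 28.9% of all tested loci lay wholly below wild-type. SPBPB2B2.18 had 9.12, 29.3 and 14.1 normalized counts in *ppn1*Δ, against 79, 164 and 256 in wild-type and SPAC977.18 had 43.8, 50.8 and 29 normalized counts in *ppn1*Δ, against 138, 186 and 329.5 in wild-type, with wild-type replicate 1 the lowest of its strain in both. These lie near chromosome ends, where copies are frequent and read assignment is uncertain.

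Moderate shifts that were tight between replicates gave some of the smallest adjusted p-values. Among the rises, SPAC25B8.12c, a nucleotide-sugar phosphatase, had 10135, 10686 and 10268 normalized counts in *ppn1*Δ, against 5689.7, 5114 and 5122 in wild-type, and *plb1*, a lysophospholipase, had 47915, 46929.8 and 44841 normalized counts in *ppn1*Δ, against 25586, 24491 and 25775 in wild-type. *msa1*, an RNA-binding protein that negatively affects sexual differentiation, had 1709.8, 2196 and 1754 normalized counts in *ppn1*Δ, against 1059, 911 and 1060.2 in wild-type, and *cbh2*, a CENP-B protein, had 804, 782 and 846 normalized counts in *ppn1*Δ, against 406, 474 and 413 in wild-type. Among the falls, *lcb4*, a kinase for sphingoid bases, had 2248, 2321 and 1983 normalized counts in *ppn1*Δ, against 4275, 4199 and 4207 in wild-type, *pex7*, a receptor for peroxisomal import, had 7480.3, 7033 and 7368 normalized counts in *ppn1*Δ, against 15187, 13479 and 12484 in wild-type, and *aip1*, a component of actin patches, had 2044, 1950.0 and 1927 normalized counts in *ppn1*Δ, against 3325, 3131 and 3343 in wild-type. The log2 fold changes of these 7 genes lay between -0.95 and 0.97, none past 2-fold, and none of them had overlapping strains. Over all tested loci 25.9% lay wholly above wild-type and 28.9% wholly below.

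Non-coding loci rose more often than coding genes, and those that rose were mostly antisense. At any fold 329 of 1047 non-coding loci rose (31.4%) and 207 fell (19.8%). Of the 1047, 736 (70.3%) overlapped a coding locus of the opposite strand, and the median log2 fold change was 0.24 for these and -0.17 for the other 311. The overlapping loci gave 287 rises and 116 falls, the others 42 rises and 91 falls. Among the 60 called up at 2-fold, 58 (96.7%) overlapped an opposite-strand coding locus, and among the 36 called down 18 (50%) did. The strand setting of the counting is not given in the sources used here. Of 159 non-coding loci that lie whole within an opposite-strand coding locus, 149 had counts, with a median of 195 over the 6 libraries. Of 483 that overlap no coding locus, 394 had counts, with a median of 48. If strand had not been used, reads of a gene and of its antisense partner could not be told apart.

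**Figure D5:**
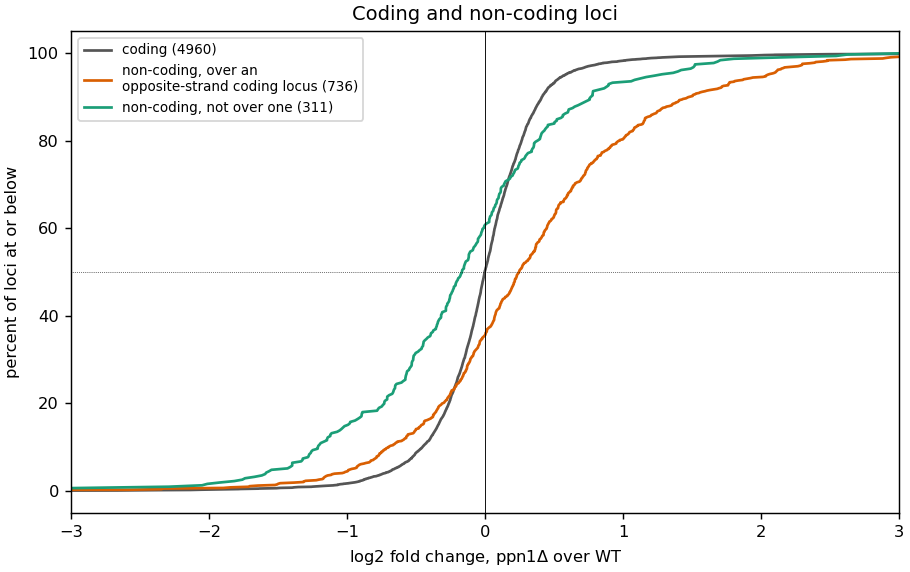
Cumulative percentage of loci (vertical axis) at or below each log2 fold change of *ppn1*Δ over wild-type (horizontal axis), for 4960 coding loci, 736 non-coding loci that overlap a coding locus of the opposite strand and 311 that do not. The curve of the overlapping non-coding loci lies to the right (median 0.24) and that of the others to the left (median -0.17) of the coding loci.

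The coding partners of the rising antisense loci went in both directions. Of the 58 overlapped coding genes, 7 rose and 21 fell at any fold, with a median of 0.058, while of 724 such genes of all tested non-coding loci 168 rose and 168 fell. Some pairs moved in opposite directions. SPNCRNA.905 had 326, 359.8 and 410.0 normalized counts in *ppn1*Δ, against 67.9, 90.6 and 66.1 in wild-type and lies over *inv2*, the invertase paralog described above. SPNCRNA.1398 had 157, 148 and 186 normalized counts in *ppn1*Δ, against 82.1, 67.7 and 57.5 in wild-type and lies over *gta1*, a glutamyl-tRNA amidotransferase subunit, which had 361, 330.5 and 404 normalized counts in *ppn1*Δ, against 829, 884 and 815 in wild-type. SPNCRNA.695 was at 1.09 over *mcb1*, a partner of the MCM replication helicase, which was at -1.04.

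The largest non-coding rises had partners that were not called or changed little. SPNCRNA.1206 had 1189, 929 and 1285 normalized counts in *ppn1*Δ, against 139.8, 161 and 163 in wild-type, and *nup211* below it, a nuclear pore protein gene, was at 0.16. SPNCRNA.1529 had 403, 189 and 480.4 normalized counts in *ppn1*Δ, against 37.5, 51.5 and 52 in wild-type over *orc1*, the origin recognition subunit, at 0.20. SPNCRNA.1273 had 683, 316 and 667 normalized counts in *ppn1*Δ, against 79, 108 and 79.1 in wild-type over *ski3*, at 0.081. SPNCRNA.1613 had 113, 63.2 and 124 normalized counts in *ppn1*Δ, against 9.12, 20.0 and 7.59 in wild-type over SPBC887.02, at -0.17. In these 4 lncRNAs *ppn1*Δ replicate 2 was the lowest of its strain, yet above all wild-type libraries. The most abundant of the 60 loci was SPNCRNA.1626, with 6668, 7031 and 6215 normalized counts in *ppn1*Δ, against 2977, 3614 and 3297 in wild-type over *mbx2*, a MADS-box factor gene, at 0.20.

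Some non-coding loci that fell lay beside coding or non-coding loci that fell. Of the 29 tested loci of any class that preceded one of the 36 on the opposite strand, 12 fell and 3 rose. Over all non-coding loci 225 fell and 158 rose of 810 such neighbours. Before the 36, 11 of 32 such neighbours, tested or not, were non-coding, against 115 of 865 over all non-coding loci. Of 17 coding genes that the 36 overlapped, 4 fell and 3 rose. The lncRNA *omt3* had 21.9, 13.5 and 29.8 normalized counts in *ppn1*Δ, against 331, 277 and 275 in wild-type, and with *mei2* and SPNCRNA.993, which lies between them and had 9.12, 16.9 and 25.7 normalized counts in *ppn1*Δ, against 54.7, 44.8 and 62.9 in wild-type, it made a run of 3 falls. The next gene, *omt2*, was at 0.10 and was not called. *rse1*, an lncRNA that represses *ste11* from its upstream side, had 1928, 2062 and 1962 normalized counts in *ppn1*Δ, against 3497, 3263 and 3818 in wild-type and so was lower together with *ste11*. SPNCRNA.1553, which starts on the other strand before SPBC19C7.04c, was at 0.62 (92.1, 123 and 104 normalized counts in *ppn1*Δ, against 71.9, 71.5 and 61.8 in wild-type), and SPNCRNA.1554 was at -1.76 (24.6, 18 and 25.7 normalized counts in *ppn1*Δ, against 66.9, 66.7 and 103 in wild-type). Other large falls were SPNCRNA.1378 with 57.4, 53 and 54.7 normalized counts in *ppn1*Δ, against 238, 266 and 340.4 in wild-type and SPNCRNA.1470 with 31, 25.9 and 31.5 normalized counts in *ppn1*Δ, against 132, 114 and 206 in wild-type.

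Gene order was set beside the calls, with neighbours taken from the annotation of ASM294v3, a later build than the ASM294v2 that the counts were made on. Of the 68 coding genes that fell at 2-fold, 36 (52.9%) had their upstream neighbour on the same strand, against 43.3% of all tested coding genes. Of the 31 such neighbours with enough counts, 16 fell and 4 rose (median -0.19), where 525 and 383 of 1888 did so over all coding genes. Upstream neighbours on the opposite strand leaned the same way, as 13 of 30 fell and 6 rose (median -0.15), where 527 and 721 of 2527 did so over all coding genes. *dus2* is a case on the same strand, since it follows *sks2* on the same strand, and *sks2* was -0.32 on the log2 scale while *dus2* was -2.67. Of the 36 coding genes that rose, 13 (36.1%) had an opposite-strand non-coding locus before their start, against 18.3% of all. These are counts over neighbours whose calls were known, and no test was made of them.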

How the data were processed

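Poly(A)+ RNA of 3 *ppn1*Δ and 3 wild-type cultures was examined, with 6 further libraries of the series in the fit. The authors prepared strand-specific libraries, mapped reads of 51 bases with HISAT2 2.1.0 and counted them with HTSeq 0.10.0 on exons of PomBase ASM294v2. What they deposited are raw counts per locus, neither scaled nor filtered, and 0 per-sample columns were left out. Names, classes, overlaps and neighbours came from the RefSeq annotation of ASM294v3, to which 6837 of 6986 loci matched by current or older identifier.

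For the test, edgeR 4.0.16 (R 4.3.3) was run with filterByExpr, TMM factors and a quasi-likelihood fit of 12 libraries with 1 mean per strain, and p-values were adjusted over 6110 loci by Benjamini-Hochberg. Every adjusted p given comes from this test. The common dispersion was 0.005626, and in a chi-square test replicates were further apart than counting noise (10.9 to 23.6 per degree of freedom). In counts simulated for this comparison on 6110 loci, edgeR recovered 50% of 1.25-fold changes and 100% of 1.5-, 2- and 4-fold changes (50 of each). The changed loci were drawn from those with a mean of at least 100 normalized counts, and every locus was given the common dispersion. Recovery at loci with fewer counts or a wider spread was not simulated. Where a group had at most 3 counts per library, the fold is a lower bound computed from 3 counts and covers counting error only.

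The members and the 34 gene lists were chosen with earlier results of these data known. The naming rule took the 10 largest rises and falls of called coding loci, the 4 largest of called non-coding loci, list members called at 2-fold and up to 4 more per direction of smallest adjusted p, the 10 coding loci of smallest adjusted p between 1.2- and 2-fold per direction, *dis2*, *swd22*, *pho1*, *pho84*, *tgp1* and the lncRNA loci beside them, SPBC19C7.04c, SPNCRNA.1553 and the loci set apart. The text names those that carry a description. Some loci are not reported here. Antisense partners, neighbours and others not covered by the rule (*inv2*, *ecl1*, *ecl3*, *mae2*, *gta1*, *mcb1*, *mbx2*, *say1*, *nam3*, *mel1*) were added after their values were seen. Alternatives were RLE factors, library size alone, DESeq2 1.42.0, edgeR on the 6 libraries, other filters and cutoffs, glmTreat, the replicate number as a block and each library left out. Python 3.11.15 with pandas 2.3.3, numpy 2.4.6 and matplotlib 3.10.9 served for tables and plots.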

Additional observations from a re-analysis of the deposited data

How the results depend on the processing

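The 2-fold counts (36 coding loci up, 68 down, 60 non-coding loci up, 36 down) and the counts at any fold (1492 up, 1527 down) stayed within 1.5 times under RLE factors, library size alone, DESeq2 on 12 or 6 libraries, edgeR on 6 libraries and both other low-count filters. They moved with the cutoffs themselves. Without a mean count cutoff 85 coding and 162 non-coding loci were up and 76 non-coding loci down. With a mean count of at least 500 the counts were 18 coding up, 45 coding down, 7 non-coding up and 4 non-coding down. At 1.5-fold they were 154, 290, 115 and 79 in the same order, and with glmTreat against 2-fold 14, 32, 27 and 12. At an adjusted p of 0.01, 954 loci were up at any fold. Of the loci set apart 10 were down, but 2 when at least 10 counts were asked of every library, since most were then not tested.

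With single libraries left out, coding loci up ranged over 34 to 38, coding loci down over 64 to 72, non-coding up over 58 to 65, non-coding down over 33 to 41, all loci up at any fold over 1149 to 1548, all loci down over 1243 to 1458 and loci set apart down over 10 to 11. Of 278 named loci tested, 46 changed their side of the adjusted p threshold in some setting and 0 changed direction. Those in the text carry the value there. The 2-fold call is a separate matter. With a library left out it was lost for *erg1* in 4 fits, SPNCRNA.1613 in 3, SPNCRNA.1626 and *mcb1* in 2 each and *rrn7* in 1. Counts of list members were less stable: in 26 of 34 lists the number up or down moved by over 1.5 times in some setting, in 14 by library size alone and in 22 with a library left out. Where the text gives no such value, rises ranged over 3 to 18 in amino acid synthesis, 7 to 18 in ribosome biogenesis, 2 to 8 in copper and zinc, 1 to 6 in the Sty1 and Atf1 list, 1 to 6 in the respiratory chain and 3 to 5 in glucose repression. Same-numbered libraries had correlations of 0.053, -0.41 and -0.44 of their deviations from the strain mean, and other pairs reached 0.69. Deviations from a mean of 3 libraries are tied to each other, so these values cannot show whether cultures were paired. With the replicate block the counts were 36 and 69 coding loci, 61 and 38 non-coding loci, 1508 and 1521 loci at any fold (up and down each) and 10 loci set apart. Without *prl61*, chosen after its values were seen, 35 non-coding loci were down.

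Small shifts were recovered only in part in simulated counts, so a gene that was not called is not shown to be unchanged.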

Other observations

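Groups of loci formed after the values had been seen gave further descriptions, with no test of a group. The general transcription factors TFIIB, TFIID, TFIIE and TFIIF rose in 10 of 16 genes and fell in 1, with a median log2 fold change of 0.36, where 23% of all coding genes rose. *sua7*, which encodes TFIIB, had 1201, 1141 and 1140.5 normalized counts in *ppn1*Δ, against 773, 743 and 705 in wild-type. Small nucleolar RNA loci rose in 14 of 41 tested and fell in 6 (median 0.27), although these RNAs mostly lack a poly(A) tail in mature form. Their share of rises was 34.1%. It was 31.4% for all non-coding loci and 25.6% for loci that are neither coding nor non-coding, the class to which most of these RNAs were assigned. Pseudogenes rose in 9 of 24 (37.5%) and fell in 2, where 25.6% of the loci that are neither coding nor non-coding rose. Spliceosome genes rose in 19 of 65 (29.2%, near the 23% of all coding genes) and fell in 8 (median 0.10).

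Calcium signalling and the replication helicase leaned the other way. Of 18 calcium genes 8 fell and 4 rose (median -0.13), where 26.4% of all coding genes fell and 23% rose. *prz1*, the transcription factor activated by calcineurin, had 3577, 3784 and 3384 normalized counts in *ppn1*Δ, against 7915, 8041 and 12067 in wild-type, the calcium sensor gene *ncs1* had 2181, 2513 and 1918 normalized counts in *ppn1*Δ, against 4933, 4664 and 5573 in wild-type, and the calcium channel gene *rsn1* had 531, 586 and 499 normalized counts in *ppn1*Δ, against 1123, 1211 and 1301 in wild-type. Of 15 genes for the MCM helicase and origin recognition 7 fell and 1 rose (median -0.17), and *mcm6* had 563, 575 and 584 normalized counts in *ppn1*Δ, against 1208, 1211 and 1151 in wild-type. Genes of the mitochondrial ribosome split into 17 rises and 13 falls of 75 (median 0.058), while the respiratory chain genes described above fell.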
